A study of Mus musculus with 8 samples.

Results

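The phagocyte NADPH oxidase was studied through the 6 of its genes that were chosen by name (Cybb, Cyba, Ncf1, Ncf4, Rac1 and Rac2), out of 23761 genes in the expression matrix. All 6 were listed, and all 6 passed the filter for testing, a mean of at least 1 FPKM. FPKM count the fragments of a gene per kilobase of its transcript, relative to all mapped fragments of the library. Bone marrow-derived macrophages (BMDMs) were grown from the femur and tibia marrow of 3 month old mice in medium conditioned by L929 fibroblasts, and total RNA was sequenced. The 4 LysM mice were LysM Cre/Cre and the 4 K2KO mice were LysM Cre/Cre KLF2 flox/flox, so that both genotypes carry Cre recombinase at both copies of the lysozyme M gene, and only K2KO mice carry floxed Klf2. Deletion in this model depends on Cre made in myeloid cells as they mature, and the short descriptions of the samples mark them as vehicle. The LysM libraries are numbered LysM0 to LysM3 and those of K2KO mice K2KO0 to K2KO3, after the columns of the matrix, which give a genotype but not a mouse.

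The oxidase is an enzyme of phagocytes that moves electrons from NADPH across a membrane onto oxygen and so makes superoxide, which is used against ingested microbes. Its catalytic core is a flavocytochrome in the membrane, made of gp91phox (Cybb) and p22phox (Cyba). In resting cells subunits such as the organizer p47phox (Ncf1) and p40phox (Ncf4) wait in the cytosol, and they join the core on activation together with a Rac GTPase, Rac1 or Rac2. Loss of gp91phox, p22phox, p47phox or p40phox is known to cause chronic granulomatous disease.

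Klf2, the targeted gene, was read first. Its FPKM were 44.1, 52.9, 64.7 and 72.8 in LysM0 to LysM3, and 45.5, 41.6, 59.2 and 59.3 in K2KO0 to K2KO3. The ranges overlapped, and the means of 58.7 ± 12.7 (SD, n = 4) and 51.4 ± 9.22 FPKM (SD, n = 4) gave a log2 fold change of -0.18 (SE 0.17, limma, adjusted p = 0.460). Expression of the targeted gene therefore does not separate the genotypes in these files, and the second group is called "the libraries labelled K2KO" below. Lyz2, the gene that holds Cre in both groups, stood at 18.6 ± 2.88 and 13.2 ± 1.73 FPKM (SD, n = 4 each).

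Macrophage markers were present. The most abundant was Cd68, at a mean of 1807 FPKM, and Csf1r, the receptor for the growth factor in the medium, stood at 524 ± 15.5 (LysM) and 526 ± 53.2 FPKM (labelled K2KO; SD, n = 4 each).

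Cyba, which encodes p22phox, was the most abundant and the only differentially expressed member. Its FPKM were 1747, 1881, 1525 and 1768 in LysM0 to LysM3, and 1210.5, 1357, 1279.7 and 1458 in K2KO0 to K2KO3. Every library labelled K2KO lay below every LysM library, with LysM2 the lowest of the LysM libraries and K2KO3 the highest of the others. The means were 1730.1 ± 149 and 1326 ± 106 FPKM (SD, n = 4 each), so that the level fell by 23.3%. On the log2(FPKM + 0.1) scale the difference, the libraries labelled K2KO minus LysM, was -0.38 (SE 0.09, limma, adjusted p = 0.0229), with a 95% interval of -0.59 to -0.18. An exact two-sided permutation test of the 8 values gave p = 0.0286, the smallest that 4 against 4 libraries allow. The call depended on the processing and was lost in 12 of 21 alternatives. Among them were the GC and length correction (-0.13, limma, adjusted p = 0.277), quantile normalization (-0.06, adjusted p = 0.671) and 5 of 8 fits without 1 library, given further on. Without a filter and with ordinary least squares the difference stayed at -0.38, a size that cannot meet a threshold of 1. Over the fits without 1 library it ran from -0.44 to -0.34. In the 5 that lost the call, 337 to 736 of all tested genes were called, in place of 2014.

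To count as differentially expressed, a gene needed an adjusted p below 0.05 together with a log2 fold change beyond 0.26 in either direction. By this rule 1 of the 6 members fell and 0 rose, which is 16.7% of them. Of all 10920 tested genes 18.4% were differentially expressed, and in the libraries labelled K2KO 9.84% were higher and 8.61% lower. The groups did not overlap for 1 of the 6 members, against 23.1% of all tested genes. The median log2 fold change was -0.14 over the members and 0.01 over all tested genes. Of the 6 values 5 were negative, against 48.2% of all tested genes, and Cybb, Ncf4 and Rac1 changed sign under other scalings. The shares of members called and without overlap lie near or under the background, so that these counts do not set the genes apart. BMDM cultures are bulk samples, in which fewer cells of a type and less RNA per cell cannot be told apart.

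**Figure D1:**
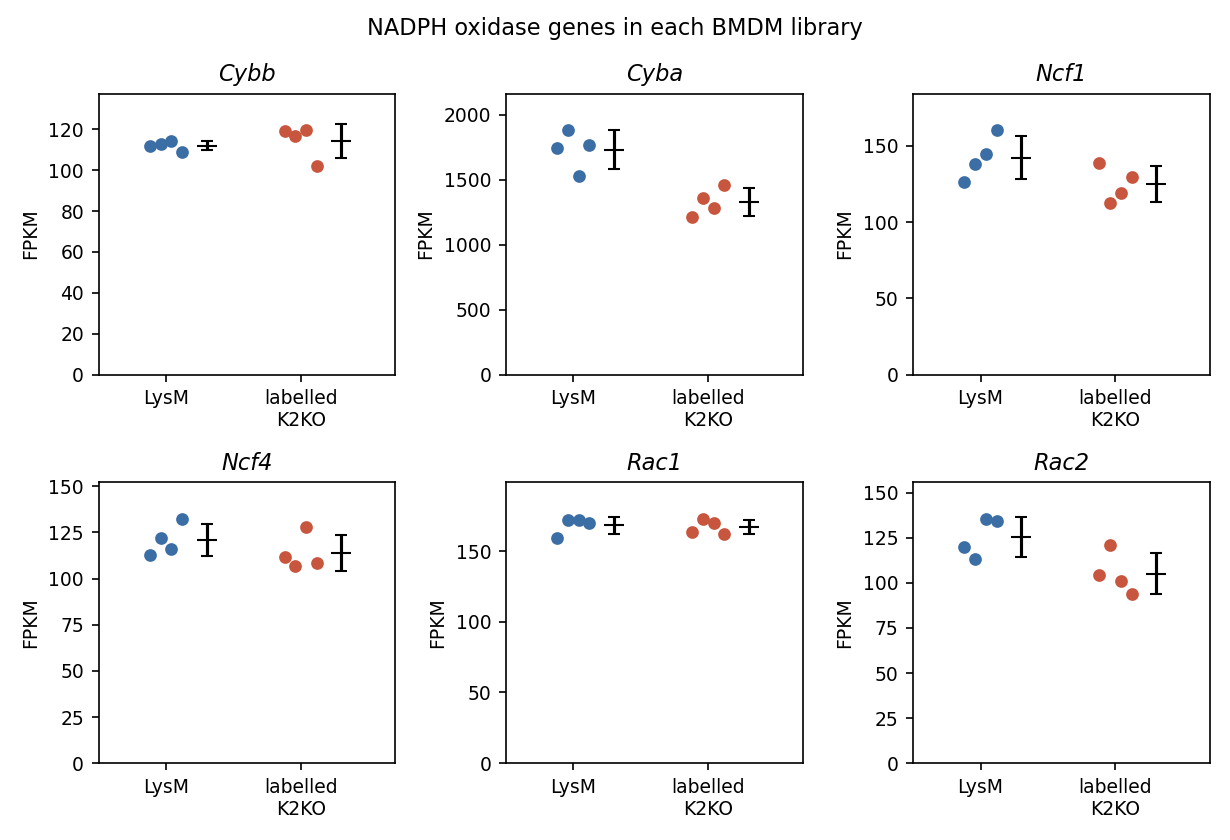
FPKM of the 6 members in each library. Points are libraries 0 to 3 from left to right within a genotype, bars are the mean ± SD (n = 4), and each vertical axis starts at 0 with its own scale. For Cyba every library labelled K2KO lies under every LysM library (1458 against 1525 FPKM at the closest), and the genotypes overlap for the other 5 members.

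Cyba is at chr8:122424776-122432930 on the minus strand (GRCm38), on the chromosome of Klf2 and 50.1 Mb from it. Its annotated transcripts are short and rich in G and C, the longest having 744 bases at 59.3% GC, and it ranked 37 among all genes by mean FPKM. The window from 250 bases before to 50 bases after its annotated start is shown because Cyba is the member that fell and because KLF2 belongs to a family that binds CACCC and GC-rich boxes. The Cybb and Ncf1 windows are set beside it for comparison. These were the only other members for which a window was found, and neither passed the test. Capitals mark matches on either strand. The first motif searched was CACCC, a core of Krüppel-like factor sites. The others were GAGGAA, a core of sites for the factor PU.1, and the GC box with its letters GGGCGG. None of the matches share a base.
Cyba, chr8:122432891-122433190, minus strand: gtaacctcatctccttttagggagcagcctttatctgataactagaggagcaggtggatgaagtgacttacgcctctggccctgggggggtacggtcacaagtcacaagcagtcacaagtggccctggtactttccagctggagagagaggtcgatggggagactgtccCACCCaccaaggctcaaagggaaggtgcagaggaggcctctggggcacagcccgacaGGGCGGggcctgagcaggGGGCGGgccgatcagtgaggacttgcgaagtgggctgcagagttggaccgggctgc
Cybb, chrX:9469275-9469574, minus strand: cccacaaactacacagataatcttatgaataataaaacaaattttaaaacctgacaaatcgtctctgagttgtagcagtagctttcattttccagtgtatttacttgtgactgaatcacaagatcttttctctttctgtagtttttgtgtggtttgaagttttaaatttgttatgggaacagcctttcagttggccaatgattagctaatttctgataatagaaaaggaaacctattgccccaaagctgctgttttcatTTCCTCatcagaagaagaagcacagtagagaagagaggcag
Ncf1, chr5:134229576-134229875, minus strand: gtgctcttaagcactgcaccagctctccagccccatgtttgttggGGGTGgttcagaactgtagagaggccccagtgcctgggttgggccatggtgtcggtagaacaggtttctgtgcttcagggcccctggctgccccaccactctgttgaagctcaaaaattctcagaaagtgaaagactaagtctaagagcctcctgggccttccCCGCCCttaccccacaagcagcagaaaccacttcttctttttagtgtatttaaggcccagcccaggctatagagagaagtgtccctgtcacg

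These sequences are from RefSeq on GRCm38.p6, which matched 3 of the 6 members. The Cybb window is set on the RefSeq start at base 9469324, where the deposited locus of Cybb also ends, while the gene annotation used for the coordinates below extends to 9487771. With the start site at +1, the Cyba window held CACCC with its first base at -81 and GGGCGG at -24 and -6. The Ncf1 window held the reverse complement of CACCC at -205 and that of GGGCGG at -42. In the Cybb window neither was present, and the reverse complement of GAGGAA lay at +10. Such matches are common, since 57.5% of 32851 RefSeq promoter windows of the same length held the first motif, 28.3% the PU.1 core and 35.7% the GC box. The windows of Cyba, Ncf1 and Cybb had 60.7%, 54.0% and 35.3% GC, and the median of all windows was 52.7%. A match is a description of the letters and was not tested for binding.

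Cybb encodes gp91phox, the subunit that carries the electrons and the partner of p22phox. It is at chrX:9435252-9487771 on the minus strand. Its FPKM were 112, 113, 114 and 109 in LysM0 to LysM3, and 119, 117, 119.6 and 102 in K2KO0 to K2KO3. The LysM libraries sat within a narrow band, and K2KO3 was the lowest of all 8 while the other 3 libraries labelled K2KO were the highest. Means of 112 ± 2.27 and 114 ± 8.35 FPKM (SD, n = 4 each) differed by 0.03 on the log2 scale (SE 0.07, limma, adjusted p = 0.787), and the 95% interval ran from -8.06% to 12.9%. With 1 library left out the difference ran from 0.0050 (without K2KO2; limma, adjusted p = 0.967) to 0.081 (without K2KO3; adjusted p = 0.224). The ratio of Cyba to Cybb FPKM within a library, which is not changed by multiplying the library by a constant, was 15.6, 16.7, 13.3 and 16.2 in LysM0 to LysM3 and 10.1, 11.6, 10.7 and 14.3 in K2KO0 to K2KO3. Its means were 15.5 ± 1.49 and 11.7 ± 1.84 (SD, n = 4 each), and the ranges overlapped through K2KO3 and LysM2. The lower ratio was not kept under the GC and length correction described below, where the log2 fold changes of Cyba and Cybb were -0.13 and -0.16, and under quantile normalization they were -0.06 and 0.19.

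Ncf1, the organizer p47phox, is at chr5:134220053-134229625 on the minus strand. Its FPKM were 127, 138, 145 and 160.3 in LysM0 to LysM3, and 139, 113, 119 and 129.9 in K2KO0 to K2KO3. LysM3 was the highest and K2KO1 the lowest, and the ranges overlapped through LysM0 and K2KO0. The difference of means, 142 ± 14.1 against 125 ± 11.6 FPKM (SD, n = 4 each), was -0.18 on the log2 scale (SE 0.09, limma, adjusted p = 0.170; 95% interval -0.39 to 0.02).

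Ncf4 encodes p40phox, which binds the lipid PtdIns3P on phagosomes, and is at chr15:78244801-78262580 on the plus strand. It gave FPKM of 113, 122, 116 and 132 in LysM0 to LysM3, and 112, 107, 128 and 109 in K2KO0 to K2KO3. LysM3 was again the highest and K2KO1 the lowest, with K2KO2 above 3 of the LysM libraries. Means of 121 ± 8.65 and 114 ± 9.67 FPKM (SD, n = 4 each) differed by -0.09 on the log2 scale (SE 0.08, limma, adjusted p = 0.440; 95% interval -0.26 to 0.09). With 1 library left out the difference ran from -0.145 (without K2KO2) to -0.042 (without LysM3), and no such fit passed the test. The within-library ratio of Ncf1 to Ncf4 was 1.18 ± 0.0621 and 1.11 ± 0.143 (SD, n = 4 each).

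Of the GTPases, Rac2 is the form largely restricted to blood cells. It lies at chr15:78559167-78572783 on the minus strand, and its FPKM were 119.7, 113, 136 and 134 in LysM0 to LysM3, and 104, 121, 101 and 94.0 in K2KO0 to K2KO3. K2KO0, K2KO2 and K2KO3 lay below all LysM libraries, and K2KO1 lay above LysM0 and LysM1. Rac2 had the second largest fall among the members, from 126 ± 11.0 to 105 ± 11.4 FPKM (SD, n = 4 each), but this difference of -0.26 (SE 0.09) did not pass the test (limma, adjusted p = 0.0745; unadjusted 0.0202; exact permutation p = 0.0857).

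Rac1, the form found in most cell types, is at chr5:143503634-143528036 on the minus strand. It varied little, with FPKM of 159, 172, 172 and 169.8 in LysM0 to LysM3, and 163, 173, 169.7 and 162 in K2KO0 to K2KO3. Both the lowest library (LysM0) and the highest (K2KO1) lay within 10% of the means of 168 ± 6.04 and 167 ± 5.08 FPKM (SD, n = 4 each). The difference of -0.01 (SE 0.06, limma, adjusted p = 0.903) had a 95% interval from -9.07% to 8.31%. Within a library the ratio of Rac1 to Rac2 was 1.35 ± 0.122 in LysM and 1.60 ± 0.132 in the libraries labelled K2KO (SD, n = 4 each). The ranges of this ratio overlapped through LysM1 (1.52) and K2KO1 (1.43). Under the GC and length correction described below, the log2 fold changes of Rac1 and Rac2 were -0.08 and -0.24.

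The members were also ordered by FPKM, which are per length. Effects of GC content or short length on the levels of different genes were not tested. Cyba led in LysM libraries with 1730.1 FPKM, followed by Rac1 (168), Ncf1 (142), Rac2 (126), Ncf4 (121) and Cybb (112). Neighbours from Rac1 to Cybb overlapped in their ranges. For the libraries labelled K2KO the order was Cyba (1326 FPKM), Rac1 (167), Ncf1 (125), Cybb (114), Ncf4 (114) and Rac2 (105), and neighbours from Ncf1 down overlapped. Cybb, the partner of Cyba in the flavocytochrome, was thus the lowest in LysM libraries, where it overlapped Ncf4 through LysM2 alone.

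Some members share bases with a gene on the opposite strand. Ncf1 overlaps Gtf2ird2 by 4303 bases (mean 2.77 FPKM), Rac1 overlaps Daglb by 2309 bases (mean 38.8 FPKM), and Cyba lies wholly within Gm20388 (mean 21.4 FPKM). The Cyba row was assigned to a locus that 104 listed genes share. The preparation was stranded, but whether strand was used in counting is not stated. It is therefore unknown whether fragments of Cyba, Ncf1 and Rac1 were told apart from those of Gm20388, Gtf2ird2 and Daglb where they overlap.

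The fall of Cyba was read against a trend that the libraries carry in base composition. For each library, Spearman's rho was computed across 10899 genes between the deviation of a gene from its mean over all libraries and the GC content of its longest transcript. It was 0.404, 0.384, 0.0336 and 0.359 in LysM0 to LysM3, and -0.285, -0.317, -0.489 and 0.0631 in K2KO0 to K2KO3. LysM2 and K2KO3, with values near 0, were also the LysM library with the least Cyba and the library labelled K2KO with the most. Cyba belongs to the eighth of genes richest in GC, whose median log2 fold change was -0.16 and of which 21.9% were lower and 1.98% higher, and to the eighth with the shortest transcripts, whose median was -0.20. Genes are not independent replicates, and these values are descriptions.

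**Figure D2:**
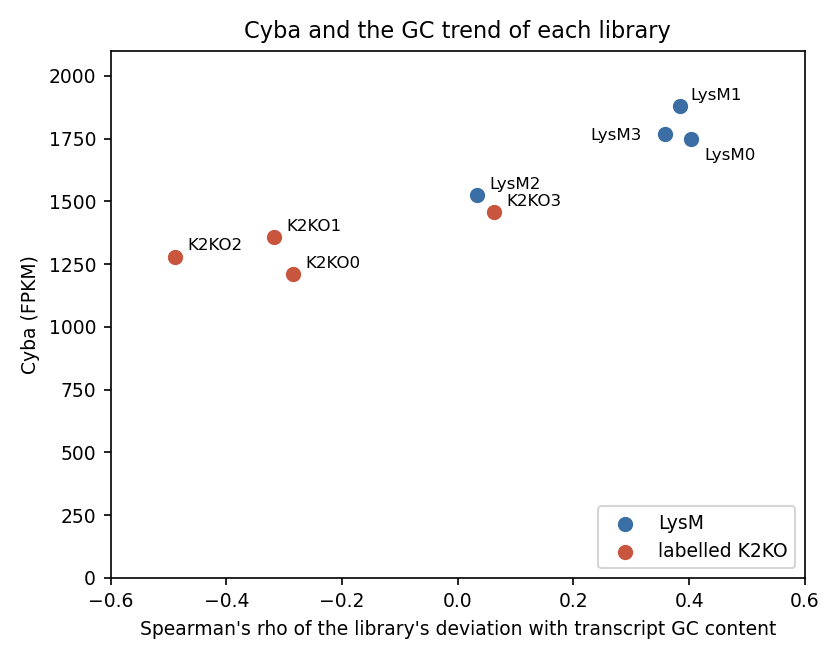
Cyba FPKM (vertical axis, from 0) against the GC trend of each library (horizontal axis, Spearman's rho across 10899 genes). Each point is a library. LysM2 and K2KO3 lie next to each other near a rho of 0, at 1525 and 1458 FPKM, and the other libraries lie apart by genotype on both axes.

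Each library was corrected for GC content and transcript length by local regression. The difference in Cyba was then -0.13 and no longer passed the test (limma, adjusted p = 0.277), and 1095 genes were called in place of 2014. The trend ran largely with genotype, so the correction also removes any genotype difference that follows GC content or length. Trend and genotype cannot be told apart here, for Cyba or for the genes named below. Under the same correction Cybb moved from 0.03 to -0.16 (limma, adjusted p = 0.0516), and Rac2 was at -0.24 (adjusted p = 0.120). Quantile normalization left Cyba at -0.06 (limma, adjusted p = 0.671). Scaling to equal summed FPKM gave -0.22 (limma, adjusted p = 0.0637), while the median of all tested genes rose to 0.18, so that Cyba stayed 0.39 below that median. The same scalings brought Rac2 to -0.12 (quantile; limma, adjusted p = 0.454) and -0.09 (equal sums; adjusted p = 0.500), and Ncf1 to -0.02 under both. With equal sums this was the shift common to all genes, since Rac2 and Ncf1 were 0.27 and 0.19 below the shifted median. Cyba was lower in the libraries labelled K2KO under all 21 alternatives run, and it passed the test in 9 of them. Leaving out 1 library ended the call for LysM1 (adjusted p = 0.0711), LysM3 (0.0946), K2KO0 (0.0639), K2KO1 (0.0591) and K2KO2 (0.0722), and kept it for LysM0 (0.0360), LysM2 (0.0347) and K2KO3 (0.0125), all by limma.

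**Figure D3:**
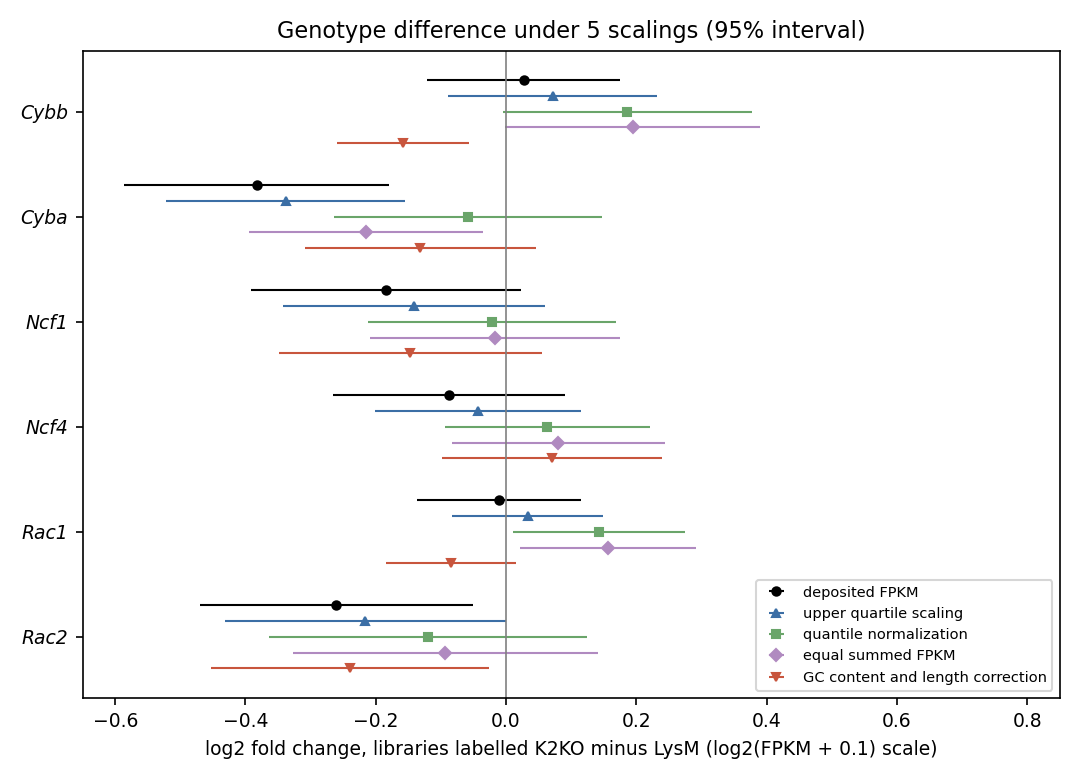
Log2 fold change (libraries labelled K2KO minus LysM) of the 6 members under 5 scalings of the same 8 libraries, with 95% intervals from limma. Cyba lies left of 0 under each scaling but spans -0.38 to -0.06, and Cybb, Ncf4 and Rac1 change sign. Equal summed FPKM moves the median of all tested genes to 0.18, and upper-quartile scaling moves it to 0.05, in each case with all members.

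Over the 8 libraries the members varied together only weakly. Pearson's r of log2(FPKM + 0.1) between members ranged from -0.483 (Cyba and Cybb) to 0.495 (Ncf1 and Ncf4), with 0.489 between Cyba and Rac2. Among 9703 tested protein-coding genes, the most similar to Cyba were Atp6v0b, a subunit of the vacuolar proton pump (r = 0.993), and Mapk3 (ERK1, r = 0.987). Those most similar to Ncf1 were Smpd5 (0.990) and C3 (complement C3, 0.966), and those to Rac2 were Arhgap17 (0.975) and Dna2 (0.965). Cybb was closest to Mdc1 (0.959) and Zfp952 (0.954), Ncf4 to Ddx41 (0.944) and Glt8d1 (0.943), and Rac1 to Mrps36 (0.927) and Cand1 (0.919). These genes were picked as the largest of many values over 8 libraries that also share depth and base composition.

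The genes around the oxidase were read list by list against the background of 18.4% of all tested genes called. The share called was 11.1% of the partners of its subunits, 14.3% of the Rac regulators, 22.2% of the upstream kinases and lipid enzymes, 9.09% of the transcription factors, 25.0% of the related oxidases and GTPases (1 of 4), 14.3% of the genes that supply NADPH and 20% of the enzymes that act on superoxide and peroxide. With 4 to 18 tested genes in a list, each share rests on 1 to 4 calls, and none is read as particular to its list.

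Among 9 partners of the flavocytochrome and of the cytosolic subunits, 1 fell and 0 rose (median log2 fold change -0.05). It was Coro1a, an actin-binding protein known to bind p40phox and the most abundant of them, with FPKM of 221, 260.1, 293 and 293 in LysM0 to LysM3 and 180.4, 175, 186 and 179 in K2KO0 to K2KO3. Its difference was -0.56 (SE 0.09, limma, adjusted p = 0.0109), and it was called in every fit without 1 library and after the GC and length correction (-0.38, adjusted p = 0.0381). Cybc1, the chaperone Eros that gp91phox and p22phox need and listed under the name BC017643, did not pass (42.4 ± 3.60 against 37.4 ± 2.20 FPKM, SD, n = 4 each, adjusted p = 0.122). Neither did Hvcn1, the voltage-gated proton channel that balances the charge (log2 fold change 0.24, adjusted p = 0.239).

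Of 16 regulators of Rac, 14 were tested, 1 rose and 1 fell (median -0.02). Arhgap15, which switches Rac off, rose from 5.70 ± 0.478 to 7.64 ± 0.415 FPKM (SD, n = 4 each; log2 fold change 0.42, limma, adjusted p = 0.0121). It was called in all 8 fits without 1 library, but not after the GC and length correction (0.14, adjusted p = 0.155). Tiam1, an exchange factor that switches Rac on, fell from 2.10 ± 0.394 to 1.43 ± 0.0765 FPKM (SD, n = 4 each; log2 fold change -0.50, limma, adjusted p = 0.0437). That call was lost without LysM1, LysM2, LysM3, K2KO0, K2KO1 or K2KO2 (adjusted p of 0.0843 to 0.109). After the GC and length correction Tiam1 was at -0.58 and still called (limma, adjusted p = 0.0465). The most abundant was Arhgdia, which holds Rac in the cytosol (583 ± 25.9 and 541 ± 36.0 FPKM, SD, n = 4 each, adjusted p = 0.283).

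For 21 kinases and lipid enzymes that act upstream of the oxidase, 18 were tested, 3 fell and 1 rose (median 0.03). Prkcb, a protein kinase C known to phosphorylate p47phox, had FPKM of 30.7, 32.7, 41.7 and 33.3 in LysM0 to LysM3 and 20.9, 24.0, 23.1 and 25.6 in K2KO0 to K2KO3. Its difference of -0.56 (SE 0.10, limma, adjusted p = 0.0126) was -0.55 after the GC and length correction (adjusted p = 0.0204). Pik3cd, the delta catalytic subunit of PI 3-kinase in leukocytes, fell from 34.3 ± 3.14 to 25.3 ± 0.429 FPKM (SD, n = 4 each; log2 fold change -0.43, limma, adjusted p = 0.0105) and was -0.42 after the correction (adjusted p = 0.0216). Both were called in all 8 fits without 1 library. Mapk3, the most abundant, fell by 0.28 (log2; limma, adjusted p = 0.0347), and Pik3r4, a partner of the PI 3-kinase that makes PtdIns3P, rose by 0.27 (adjusted p = 0.0203). Neither call held after the GC and length correction, where Mapk3 was at -0.12 (adjusted p = 0.207) and Pik3r4 at 0.22, under the threshold of the fold change (adjusted p = 0.0299). Mapk3 was lost without LysM1, LysM3, K2KO0, K2KO1 or K2KO2 (adjusted p of 0.0752 to 0.0950), and Pik3r4 without any of these or LysM2 (0.0511 to 0.0742).

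Transcription factors known to act on the Cybb promoter numbered 14, of which 11 were tested, 1 rose and 0 fell (median -0.04). Elf1, an ETS factor, rose by 0.35 (log2; limma, adjusted p = 0.0235), with the call lost without LysM1, LysM3, K2KO0, K2KO1 or K2KO2 (adjusted p of 0.0615 to 0.0799). After the GC and length correction it was at 0.22 (adjusted p = 0.0467), under the threshold of the fold change. Spi1, which encodes PU.1, stood at 243 ± 9.71 and 211 ± 12.9 FPKM (SD, n = 4 each; limma, adjusted p = 0.0530). Cebpb was the most abundant and varied widely, since K2KO3 (500.3 FPKM) was the highest of all libraries and the other libraries labelled K2KO lay between 245 and 301 FPKM.

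Most genes of other oxidases had low values. Of 10 listed genes for other oxidases, their partners and related GTPases 4 were tested, and 1 fell. This was Rac3, from 6.03 ± 0.808 to 3.79 ± 0.110 FPKM (SD, n = 4 each; log2 fold change -0.65, limma, adjusted p = 0.0068), called in all 8 fits without 1 library but not after the GC and length correction (-0.39, adjusted p = 0.0833). Nox1 stayed under 0.2 FPKM in each library, Duoxa1 and Duoxa2 were listed at 0 in all 8, and Cdc42 was the most abundant (435 ± 32.1 and 425 ± 25.4 FPKM, SD, n = 4 each). A value near 0 is not read as absence of a transcript, because Gapdh was also listed at 0 to 0.500 FPKM.

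Among 8 genes that supply NADPH, 7 were tested, 1 fell and 0 rose (median -0.07). Pgls, an enzyme of the pentose phosphate pathway, had FPKM of 173, 191, 174 and 188 in LysM0 to LysM3 and 117, 116, 122 and 169 in K2KO0 to K2KO3 (log2 fold change -0.49, SE 0.12, limma, adjusted p = 0.0249). K2KO3 lay near the LysM libraries, and the call was lost without LysM1, LysM2, LysM3, K2KO0, K2KO1 or K2KO2 (adjusted p of 0.0527 to 0.0863). After the GC and length correction Pgls was at -0.38 and still called (limma, adjusted p = 0.0453). Taldo1 was the most abundant (629.7 ± 52.3 and 602 ± 79.8 FPKM, SD, n = 4 each, adjusted p = 0.643).

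Enzymes that act on superoxide and peroxide numbered 16, with 15 tested, 2 that fell and 1 that rose (median -0.00). Gpx1, a glutathione peroxidase and the most abundant, was 1709, 2185, 1573 and 2087 FPKM in LysM0 to LysM3 and 1301, 1326, 1268 and 1489 FPKM in K2KO0 to K2KO3 (log2 fold change -0.48, SE 0.12, limma, adjusted p = 0.0247). Its call was lost without LysM1, LysM3, K2KO0, K2KO1 or K2KO2 (adjusted p of 0.0675 to 0.0995) and after the GC and length correction (-0.28, adjusted p = 0.0639). Prdx2, a peroxiredoxin, fell from 168 ± 9.86 to 124 ± 7.87 FPKM (SD, n = 4 each; log2 fold change -0.44, limma, adjusted p = 0.0095), was called in all 8 fits without 1 library, and stood at -0.38 after the correction (adjusted p = 0.0062). Txnrd1, thioredoxin reductase, rose by 0.53 (log2) with ranges that overlapped (limma, adjusted p = 0.0494), a call kept only without LysM0 and lost without any other library (adjusted p of 0.0580 to 0.138) and after the GC and length correction (0.49, adjusted p = 0.0823).

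**Figure D4:**
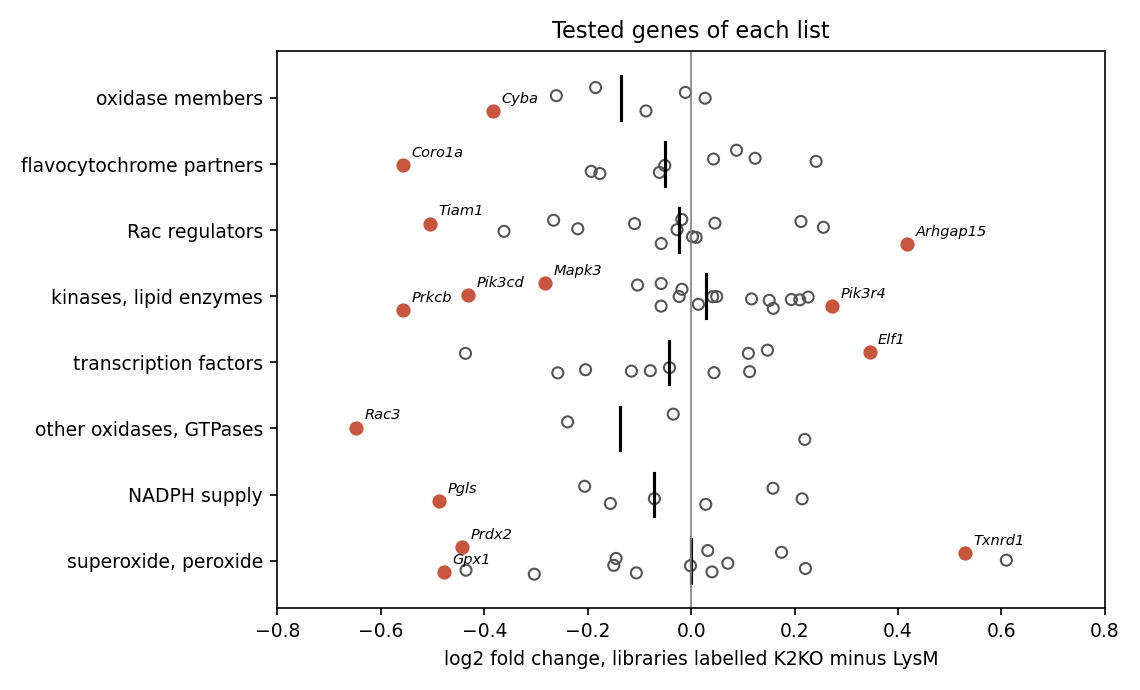
Log2 fold change (libraries labelled K2KO minus LysM) of the tested genes of the oxidase and of each related list. Each circle is a gene, filled and named where it was differentially expressed, and black bars are medians. The medians lie between -0.14 and 0.03, and each list has genes on both sides of 0.

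Markers of other cells that could be in the cultures were counted, since neutrophils are rich in the same oxidase. Of 14 neutrophil markers 11 were tested, and 1, Camp, fell (log2 fold change -1.14, limma, adjusted p = 0.0178). Their summed level was 230, 329, 282 and 382 FPKM in LysM0 to LysM3 and 235, 345, 287 and 371 FPKM in K2KO0 to K2KO3, with overlapping ranges (two-sided exact permutation test, p = 0.886). S100a9 was the most abundant at 129 FPKM, and Ly6g, which marks mature neutrophils, was at 0.262 ± 0.102 and 0.160 ± 0.109 FPKM (SD, n = 4 each). Summed markers of monocytes and dendritic cells (exact permutation p = 0.800), of lymphoid cells (0.114), of mast cells, basophils and eosinophils (0.171), of erythroid cells and megakaryocytes (0.543) and of stroma (0.229) did not pass the same test. The most abundant gene of these lists was Pf4, at a mean of 282 FPKM. The summed level of 10 macrophage markers was 4074 ± 83.5 and 3796 ± 64.0 FPKM (SD, n = 4 each; exact permutation p = 0.0286), with Mertk higher and Lyz2 lower among the 9 tested. Of these 9, 4 had higher and 5 lower means (median log2 fold change -0.04), and most of the fall in the sum was in Cd14, a receptor for lipopolysaccharide, at 1028 ± 56.7 and 829 ± 118 FPKM (SD, n = 4 each; limma, adjusted p = 0.0630). As a share of each library's summed FPKM the direction turned, with 0.767% ± 0.0394 in LysM and 0.803% ± 0.0309 in K2KO (SD, n = 4 each) and overlapping ranges. Actb, which encodes beta-actin, also fell, from 2820.5 ± 138 to 2188 ± 218 FPKM (SD, n = 4 each; log2 fold change -0.37, limma, adjusted p = 0.0239), close to the change in Cyba. The part of these levels in the difference in Cyba was not tested.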

How the data were processed

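Per the labels and the methods, RNA from 8 BMDM libraries (4 LysM, 4 K2KO) was sequenced after a stranded total RNA preparation. The authors deposited a single table of FPKM, made with TopHat2 and Cufflinks on mm10 according to the methods, while the submitters' processing notes name STAR, Cufflinks and Cuffdiff. Versions are not given in the sources used here, and the RNA kits named by the labels and the methods differ. FPKM carry no read counts, so that depth is unknown and no counting interval was given. Summed FPKM were 448235 to 551608.

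Of 23761 listed genes 99.5% matched GENCODE M21 (GRCm38). Genes that averaged 1 FPKM or more (10920) were fitted on log2(FPKM + 0.1) with limma 3.58.1 (eBayes with trend, R 4.3.3) without covariates, with Benjamini-Hochberg adjustment over all of them. A fold change on this scale understates the change of low genes. Single sums were compared by exact two-sided permutation (35 splits). The fit was run on simulated data with independent noise and changes larger than that of Cyba. That run does not cover changes as small as that of Cyba, or the GC and length trends. Some items under the rule are not reported here. The methods give 4 mice per genotype, but the table's columns do not tie a library to a mouse.

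Members, gene lists and the rule for named genes (members, Klf2, the most abundant gene and up to 4 separated calls of each list, the 2 genes most similar to each member) were chosen with earlier results of these data known. Cybc1, Hvcn1, Spi1, Txnrd1, Actb, Gapdh, Nox1, Duoxa1, Duoxa2, single markers and the genes overlapping members were named after their values were seen. Alternatives were pseudocounts of 1 and 0.01, a mean FPKM of at least 0.1 or no filter, quantile, upper-quartile and equal-sum scaling (the last chosen after seeing the data), no trend, least squares, an absolute log2 fold change over 1, a local regression on GC content and length (span 0.3), a replicate block, and each library left out.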

Additional observations from a re-analysis of the deposited data

Results flagged for a closer look

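Of 70 groups of 4 libraries examined, 3 held a library far from the other 3, and chance flags about 1 in 20 groups. Cybb was 102 FPKM in K2KO3 against 117 to 119.6 FPKM in the other libraries labelled K2KO. Pgls was 169 FPKM in K2KO3 against 116 to 122 FPKM. Mdc1 was 2.86 FPKM in K2KO3 against 3.40 to 3.49 FPKM. Mdc1 was named for its likeness to Cybb over the same 8 libraries (r = 0.959), so that its value is not separate from that of Cybb. K2KO3 was the only library labelled K2KO with a GC trend above 0 (rho 0.0631), and the part of that trend in these values was not tested.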

How the results depend on the processing

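The number of differentially expressed members was 1, and it was 0 without a filter, with quantile normalization, equal summed FPKM, ordinary least squares, an absolute log2 fold change over 1, and the GC content and length correction with or without the replicate block. Leaving out single libraries gave 0 to 1 members. Signs reversed for Ncf4 under quantile normalization (0.0636), equal sums (0.0801) and the correction (0.0704 with and without the block), for Rac1 under quantile (0.14), upper-quartile (0.0332) and equal-sum scaling (0.16) and without LysM1 (0.00046) or K2KO3 (0.0025; -0.0369 to 0.0025 over all libraries left out), and for Cybb under the correction (-0.16 with and without the block). None of these reversed values passed the test. Equal sums moved the median of all genes to 0.18, and relative to it Ncf4 (-0.10) and Rac1 (-0.02) were not reversed. Upper-quartile scaling moved that median from 0.01 to 0.05, and Rac1 (0.0332) stayed below it, as in the main fit. Ncf1, Rac2 and Cyba kept their sign in all 21 alternatives, but quantile normalization brought Ncf1 from -0.18 to -0.02 and Rac2 from -0.26 to -0.12. With equal sums they were at -0.02 and -0.09, which is -0.19 and -0.27 relative to the shifted median. Apart from these shifts of the median, the cause of the changes was not tested.

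All tested genes gave 2014 calls (1074 higher, 940 lower). The count was 483 without a filter, 3132 with equal sums (2787 higher, 345 lower), 746 with least squares, 110 at the larger fold change, 1095 after the correction (484 higher, 611 lower) and 864 with the block as well. Upper-quartile scaling gave 1335 higher and 748 lower. Leaving out libraries gave 337 (without LysM3) to 2837 (without K2KO3).

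Counts for the lists moved as follows. Without a filter there were 2 kinases, 1 Rac regulator, 1 peroxide enzyme, and 0 transcription factors and NADPH genes. Quantile normalization gave 2 kinases and 4 Rac regulators. Equal sums gave 2 transcription factors, 2 partners and 5 peroxide enzymes. Least squares gave 1 Rac regulator, 1 peroxide enzyme, and 0 transcription factors and NADPH genes. The larger fold change left 0 in the oxidase and in each related list. Marker lists were not counted under the alternatives, and Camp, a neutrophil marker, lies beyond that threshold (-1.14, limma, adjusted p = 0.0178). The correction gave 2 kinases, 2 partners, 0 transcription factors and 0 other oxidases. With the block as well, there were 2 kinases and 0 partners, transcription factors, NADPH genes, other oxidases and Rac regulators. Single libraries left out gave 2 to 6 kinases, 0 to 3 transcription factors, 1 partner in each case, 0 to 1 NADPH genes, 1 to 2 other oxidases, 1 to 5 Rac regulators and 1 to 5 peroxide enzymes.

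A replicate block, built on the last digit of each column's name, gave 2057 calls, of which 1790 were shared, and Cyba stayed differentially expressed (-0.38, limma, adjusted p = 0.0250). Deviations of libraries with the same number correlated at -0.0702, 0.0203, 0.0729 and -0.0570, and LysM0 correlated best with K2KO1 (0.184). Whether libraries with the same number were prepared together is not stated, and these values cannot settle it.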
